A study of Homo sapiens with 95 samples.

Results

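The genes described here are 9 antiproteases and related secreted or cytosolic proteins of the airway epithelium, namely PI3, SLPI, LCN2, SERPINB1, SERPINB2, SERPINB3, SERPINB5, SERPINE2 and CSTB. They were taken by symbol from the count file of every well, and all 9 were among the 23895 gene symbols listed there. Their levels in these wells were known when they were chosen, so the levels and differences of the 9 genes are given as a description. Their p-values are not printed. Where a threshold or a count of p-values under 0.05 is given for them, it is part of that description.

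The airway surface is exposed to proteases released by neutrophils and by the epithelium itself, and a set of inhibitors holds these enzymes in check. PI3 (elafin) and SLPI are small secreted inhibitors of the WAP family that block neutrophil elastase and are best known from airway and skin epithelium. Serpins are larger inhibitors that offer a protease a bait loop and trap it when the loop is cut, and most clade B members stay inside the cell. Cystatins block cysteine proteases such as the cathepsins.

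Gene expression was measured by 3′ digital gene expression (3′DGE), in which the 3′ end of each mRNA is tagged with a unique molecular identifier (UMI) and counted once, in AALE cells, an immortalized line of human bronchial epithelial cells. Of 95 wells, 82 carry a 1-digit replicate number and enter the comparisons, and the other 13 carry a 2-digit number and are described apart. In the overexpression arm, cells expressed PIK3CA, NRG1, FGFR1 or NRF2 (encoded by NFE2L2) and were compared with an empty vector that holds the reporter HcRed, and in the CRISPR arm FAT1 or CDKN2A was targeted, with cells given the pSpCas9-EGFP plasmid and no guide RNA (GFP) as theirs. All 8 populations were given DMSO (the vehicle) or 1 of 3 agents, which were a condensate of cigarette smoke (CSC, 24 µg/ml), the polycyclic aromatic hydrocarbon BaP (benzo[a]pyrene, 173 µM) and the nitrosamine NNK (490 µM). The sources used here do not give the length of the exposure, nor say whether a population was a pool or a clone. The study calls the wells of a group biological replicates, and does not say whether they came from separate transductions or transfections, so the standard errors and p-values measure the spread between wells of 1 population. Each chemical fills 2 plate rows that hold no other chemical, and each population takes the same 3 columns in 1 row of each pair, columns which it shares with 1 other population. Chemical and row therefore cannot be told apart, nor can a population and its block of wells.

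The 82 wells held 692446 to 1895740 counted UMIs, with a median of 1293620. The basal markers fixed for the check (KRT5, KRT14, KRT15, KRT17, TP63, EPCAM, CDH1) summed to 309.97 to 945 CPM per well (counts scaled to a common library total), and 6 of the 7 had a mean above 10 CPM. Club and goblet cell markers summed to at most 0.773 CPM, ciliated cell markers to at most 6.71 CPM and fibroblast markers to at most 15.8 CPM, while the leukocyte list reached 37.2 CPM through CD68 alone, with AZU1, CSF3R, FCGR3B and CD3E at 0 in all 82 wells. The targeted genes moved as labelled, from a log2 fold change of 7.65 for NRG1 to -2.47 for FAT1 and -0.89 for CDKN2A. The NRG1 well of replicate 2 under NNK stood apart from its replicates. Fitted differences of members that rest on it, and shares of genes called, are given with and without it. Those of other listed genes are given with it only.

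On hg19, PI3 lies on chromosome 20 at chr20:43803543-43805185 (plus strand) and SLPI on the same chromosome at chr20:43880880-43883205 (minus strand). SERPINB1 lies at chr6:2832566-2842193 (minus strand), near its clade B relative SERPINB6 at chr6:2948393-2972399 (minus strand). The clade B cluster of chromosome 18 holds SERPINB5 at chr18:61144191-61172318 (plus strand), SERPINB3 at chr18:61322431-61329127 (minus strand) and SERPINB2 at chr18:61538926-61571122 (plus strand). SERPINE2 lies at chr2:224839762-224904035 (minus strand), CSTB at chr21:45192392-45196211 (minus strand) and LCN2 at chr9:130911350-130915732 (plus strand).

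The 250 bases before the transcription start site are printed for SERPINB1 and SERPINB2, because both were higher across populations under CSC and under BaP. They were read from the hg19 genome (GRCh37) with the GENCODE v44lift37 start of the MANE Select transcript, 5′ to 3′ on the strand of the gene, at chr6:2842098-2842347 (minus) for SERPINB1 and chr18:61554689-61554938 (plus) for SERPINB2. Capitals mark matches to an AP-1 site (TGANTCA) or to an NF-kappaB-type site (GGGA and CC with any 4 bases between) on either strand.
SERPINB1: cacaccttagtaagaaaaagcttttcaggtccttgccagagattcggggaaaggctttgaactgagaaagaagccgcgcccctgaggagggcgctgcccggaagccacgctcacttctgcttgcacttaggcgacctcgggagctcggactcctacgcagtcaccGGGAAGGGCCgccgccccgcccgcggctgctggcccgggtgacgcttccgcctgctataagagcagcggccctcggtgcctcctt
SERPINB2: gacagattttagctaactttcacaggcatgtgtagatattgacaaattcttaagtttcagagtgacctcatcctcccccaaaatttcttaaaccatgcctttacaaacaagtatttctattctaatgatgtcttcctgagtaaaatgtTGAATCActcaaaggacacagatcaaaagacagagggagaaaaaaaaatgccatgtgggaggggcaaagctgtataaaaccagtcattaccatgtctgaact

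Counting the first base of a match back from the start site, SERPINB1 held 1 NF-kappaB-type match at -85, whereas SERPINB2 held none and had an AP-1 match at -102. SERPINB1 also held the core of a xenobiotic response element (GCGTG), at -145 and not capitalised, which SERPINB2 did not, and neither held the core of an antioxidant response element (TGACNNNGC). Of 18921 protein-coding promoters of the same length, 26.9% held the NF-kappaB-type site, 4.71% the AP-1 site, 40.7% the GCGTG core and 11.4% the antioxidant core. These matches are letters in a window and were not tested as sites. Among the other members, AP-1 matches were also present in the windows of SERPINB5 (at -146) and LCN2 (at -52). NF-kappaB-type matches were present in those of PI3 (at -142 and -129), SLPI (at -77), LCN2 (at -176 and -175) and CSTB (at -237). The window of SERPINB5 also held the GCGTG core, at -65 and -42.

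The levels of PI3 under DMSO were highest in HcRed and NRF2 cells and lowest in FAT1 cells. In the overexpression control HcRed the 3 wells read 225, 197 and 156 CPM, and in NRF2 cells 247, 193 and 196 CPM. PIK3CA cells read 41.7, 36.2 and 37.2 CPM, NRG1 cells 23.3, 22 and 23.2 CPM, and FGFR1 cells 22.9, 21 and 19.9 CPM. Every well of these 3 populations was below every HcRed and NRF2 well, and the PIK3CA wells were above all NRG1 and FGFR1 wells. In the CRISPR arm, GFP cells read 21, 10.8 and 14.7 CPM, CDKN2A cells 11.7, 13.7 and 14.0 CPM, and FAT1 cells 3.81, 4.53 and 4.63 CPM. FAT1 wells were below all others, on 6 to 8 counts each, while GFP wells overlapped those of CDKN2A and FGFR1, and FGFR1 wells those of NRG1.

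On the fitted scale, PI3 differed from HcRed under DMSO by a log2 fold change of -2.23 (SE 0.14) in PIK3CA, -2.96 (SE 0.16) in NRG1 and -3.15 (SE 0.19) in FGFR1 cells (n = 3 wells a group), and by 0.24 (SE 0.09) in NRF2 cells, whose wells overlapped those of HcRed. The controls themselves differed, with GFP at -3.59 (SE 0.23) against HcRed, a mean 12.4 times lower. FAT1 cells were lower still, by -1.67 (SE 0.37) against GFP, and CDKN2A cells differed from GFP by -0.30 (SE 0.28), with a 95% interval of -0.87 to 0.26. The comparisons with HcRed share its 3 DMSO wells. Those of GFP with HcRed and of FAT1 and CDKN2A with GFP share the 3 GFP DMSO wells. Since these are bulk wells, fewer cells that express a gene and less RNA per cell cannot be told apart.

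SLPI, which sits in the same WAP cluster, had a similar order with smaller steps. Under DMSO its 3 wells read 578, 496 and 506 CPM in HcRed and 549, 468 and 441 CPM in NRF2 cells. They read 253, 193 and 274 CPM in PIK3CA, 185, 176 and 205 CPM in NRG1 and 182, 161 and 154 CPM in FGFR1 cells. All 9 wells of these 3 populations were below every HcRed and NRF2 well. The CRISPR populations were lower again, at 66.3, 67.3 and 77.7 CPM in GFP, 105, 83.3 and 99.5 CPM in FAT1 and 50.8, 54.7 and 50.9 CPM in CDKN2A cells. Here the 3 groups did not overlap, and FAT1 stood above GFP, the opposite side from PI3.

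The fitted log2 fold changes of SLPI against HcRed under DMSO were -1.09 (SE 0.08) in PIK3CA, -1.40 (SE 0.07) in NRG1, -1.67 (SE 0.12) in FGFR1 and -2.83 (SE 0.11) in GFP cells. In NRF2 cells the difference was -0.02 (SE 0.07), with a 95% interval of -0.16 to 0.11. Against GFP, SLPI differed by 0.48 (SE 0.13) in FAT1 and by -0.54 (SE 0.16) in CDKN2A cells. The CDKN2A difference was -0.47 and no longer past the threshold when GFP replicate 3 was left out.

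**Figure D1:**
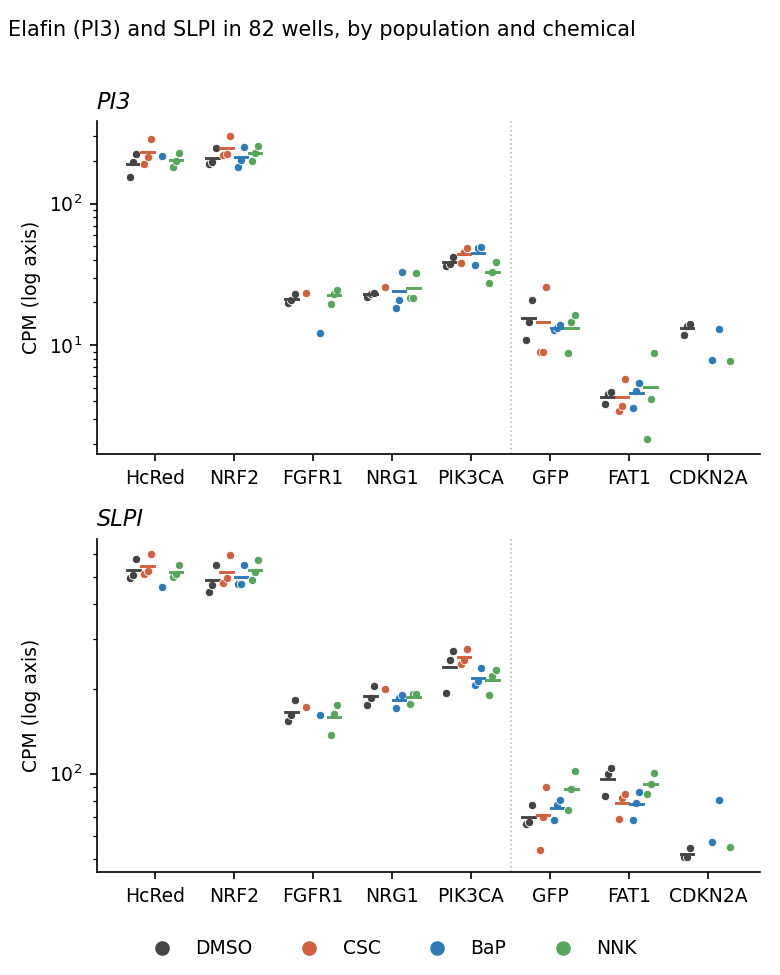
PI3 and SLPI in each of the 82 wells, in CPM on a log axis, by population (x axis) and chemical (colour). Points are wells, horizontal bars are means of groups of 3 wells, and the dotted line separates overexpression from CRISPR populations. HcRed and NRF2 wells stand above all others for both genes, and wells of the 4 chemicals lie together within each population.

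The PI3 and SLPI differences called under DMSO were also called in the wells given a chemical, except that of SLPI in FAT1 cells. These wells are separate from the DMSO wells. CDKN2A cells had too few wells with 1-digit numbers to be compared in them. For PI3, GFP against HcRed gave -4.05 (SE 0.27) under CSC and -3.94 (SE 0.24) under NNK, PIK3CA gave -2.27 (SE 0.14) and -2.56 (SE 0.16), and FGFR1 under NNK gave -3.18 (SE 0.20). NRG1 under NNK gave -3.19 (SE 0.29), or -2.85 without NRG1 replicate 2. FAT1 against GFP gave -1.52 (SE 0.39) in CSC wells, -1.44 (SE 0.37) in BaP wells and -1.31 (SE 0.40) in NNK wells. The CSC value was past the threshold except without GFP replicate 2 (-1.0), and the NNK value except without GFP replicate 1 or FAT1 replicate 1 or 2, with values of -1.84 to -0.89 over the 6 wells left out in turn.

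For SLPI, GFP against HcRed gave -2.93 (SE 0.12) under CSC and -2.57 (SE 0.12) under NNK, PIK3CA gave -1.01 (SE 0.08) and -1.24 (SE 0.09), and FGFR1 under NNK gave -1.71 (SE 0.11). NRG1 under NNK gave -1.61 (SE 0.26), or -1.40 without NRG1 replicate 2, and its call was lost on leaving out any of the 3 HcRed wells. The SLPI difference of FAT1 cells was smaller in these wells, at 0.23 (SE 0.15) with CSC, 0.10 (SE 0.13) with BaP and 0.20 (SE 0.13) with NNK. None of these 3 values passed the threshold, and the wells of FAT1 and GFP overlapped under all 3.

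Under DMSO the summed basal markers, like PI3 and SLPI, were higher in every HcRed and NRF2 well than in any other well. The sums ranged from 801 to 945 CPM in the HcRed and NRF2 wells. They ranged from 362 to 686 CPM in FGFR1, NRG1 and PIK3CA wells, and from 364 to 652 CPM in the CRISPR wells. These lower ranges overlapped, whereas SLPI was lower in every CRISPR well than in any FGFR1, NRG1 or PIK3CA well. The FAT1 sums were below the GFP sums, while SLPI was higher in FAT1 than in GFP wells. KRT5 was lower and past the threshold in FGFR1, NRG1, PIK3CA and GFP cells against HcRed and in FAT1 and CDKN2A cells against GFP, but not in NRF2 cells. EPCAM of the same list went the other way, higher and past the threshold in FGFR1, PIK3CA, FAT1 and CDKN2A cells, and KRT17 was higher in NRF2 cells. Their part in the result was not tested.

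For both WAP inhibitors the wells of the chemicals lay among those of DMSO. In a fit with the population as a term, the difference of PI3 from DMSO was 0.20 (SE 0.07) for CSC, 0.07 (SE 0.08) for BaP and 0.09 (SE 0.08) for NNK, and that of SLPI was 0.04 (SE 0.05), -0.01 (SE 0.05) and 0.06 (SE 0.06). Without NRG1 replicate 2 under NNK, the NNK values were 0.14 for PI3 and 0.10 for SLPI, neither past the threshold. The wells of each chemical overlapped the DMSO wells in every population compared, 5 for CSC, 5 for BaP and 7 for NNK. The 95% interval for PI3 under CSC was 0.06 to 0.34. That difference passed the threshold with edgeR, with the replicate block and with all wells, but not in the fit reported here. The fit with all wells takes those with 2-digit numbers as separate samples, which the labels do not settle.

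SERPINB1 and SERPINB2 behaved differently, with higher levels under CSC in most or all populations. SERPINB2, also known as plasminogen activator inhibitor 2, is a clade B serpin that inhibits urokinase and is strongly inducible in epithelial cells and macrophages. Its DMSO wells read 6.85, 8.09 and 8.52 CPM in HcRed, and the CSC wells 33.2, 49.6 and 44.6 CPM. In NRF2 cells the values went from 1.57, 2.04 and 5.63 CPM to 12.3, 10.5 and 12.5 CPM, and in PIK3CA cells from 5.30, 5.37 and 5.32 CPM to 52.6, 53.4 and 27.5 CPM. In GFP cells they went from 9.23, 20.8 and 17.6 CPM to 59.2, 45.8 and 40.3 CPM, and in FAT1 cells from 1.27, 1.13 and 1.54 CPM to 3.59, 6.29 and 3.69 CPM. Every CSC well was above every DMSO well in all 5 populations.

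Across the 5 populations, SERPINB2 was higher under CSC by a log2 fold change of 2.19 (SE 0.16). Within populations the difference was 2.45 (SE 0.29) in HcRed, 1.94 (SE 0.44) in NRF2, 2.98 (SE 0.35) in PIK3CA, 1.63 (SE 0.24) in GFP and 1.52 (SE 0.60) in FAT1 cells. The FAT1 difference was not past the threshold, and the NRF2 difference lost its call when NRF2 DMSO replicate 1 or 2 was left out, at values of 1.66 and 1.73. Over all 6 wells left out in turn it ranged from 1.66 to 2.44. The HcRed mean under CSC was 5.44 times its DMSO mean.

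Under BaP, SERPINB2 was higher across populations by 1.11 (SE 0.19). NRG1 cells had the largest difference, at 2.16 (SE 0.34), with DMSO wells of 6.46, 4.54 and 3.66 CPM and BaP wells of 29.1, 15.6 and 21.8 CPM. PIK3CA cells also did not overlap, with BaP wells of 5.72, 12.2 and 12.8 CPM, whereas the wells of NRF2, GFP and FAT1 did. Under NNK the difference across populations was 0.10 (SE 0.16), with a 95% interval of -0.21 to 0.41, and the wells overlapped DMSO in all 7 populations. Without NRG1 replicate 2 under NNK that difference was also 0.10.

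SERPINB1, the cytosolic inhibitor of neutrophil elastase, cathepsin G and proteinase 3, showed smaller differences in the same direction. Its wells read 75.3, 64.7 and 52.7 CPM under DMSO and 93.0, 115 and 102 CPM under CSC in HcRed. In NRF2 cells they read 30.7, 31.3 and 37.3 CPM under DMSO and 60.1, 61.0 and 61.5 CPM under CSC. In PIK3CA cells the DMSO wells read 52.3, 63.8 and 50.9 CPM and the CSC wells 98.2, 102 and 85.8 CPM. None of these CSC wells overlapped DMSO, and the same held for GFP cells, with 87.3, 105 and 108 CPM under DMSO and 128, 145 and 145 CPM under CSC. Only in FAT1 cells did the wells overlap, at 41.3, 35.7 and 49.4 CPM under DMSO and 54.5, 60.7 and 44.3 CPM under CSC.

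The fitted difference of SERPINB1 across populations was 0.63 (SE 0.07) for CSC, 0.49 (SE 0.06) for BaP and 0.24 (SE 0.07) for NNK, the last 0.25 without the NRG1 well that stood apart. Within populations it was 0.76 (SE 0.14) in HcRed, 0.84 (SE 0.16) in NRF2, 0.81 (SE 0.13) in PIK3CA, 0.45 (SE 0.11) in GFP and 0.32 (SE 0.16) in FAT1 cells under CSC. Under BaP it ranged from 0.28 (SE 0.12) in GFP to 0.73 (SE 0.17) in NRF2 cells, and all BaP wells were above all DMSO wells in 3 of 5 populations. Under NNK this held in 3 of 7 populations, NRF2, FGFR1 and NRG1, and no single population passed the threshold. CD68 moved in the same direction under CSC and BaP, and KRT5 and KRT14 in the opposite direction under all 3 chemicals, while CDH1 and KRT17 were higher under NNK. Whether cell makeup had a part in these values was not tested.

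**Figure D2:**
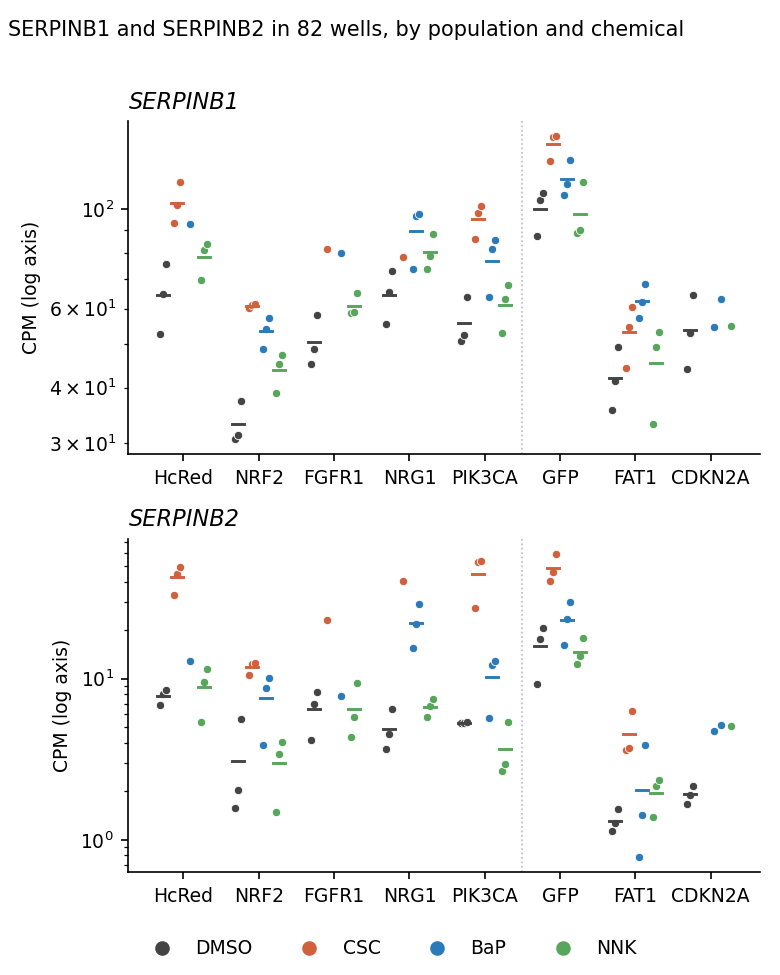
SERPINB1 and SERPINB2 in each of the 82 wells, in CPM on a log axis, drawn as in the plot of PI3 and SLPI. CSC wells (orange) of SERPINB2 lie above the DMSO wells (dark grey) in each population that has both, from 33.2 to 49.6 CPM against 6.85 to 8.52 CPM in HcRed, and GFP wells of SERPINB1 are the highest under DMSO.

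SERPINB1 and SERPINB2 also differed between populations, and they shared which populations stood high and low. Under DMSO, GFP wells were above those of all other populations for both genes. SERPINB1 was lower in NRF2 cells than in HcRed by -0.84 (SE 0.16), and by -0.76 (SE 0.14) under CSC and -0.77 (SE 0.15) under NNK. SERPINB2 was lower there too, by -1.33 (SE 0.47) under DMSO, which was not past the threshold, by -1.84 (SE 0.25) under CSC and by -1.41 (SE 0.48) under NNK, which also was not past the threshold. No SERPINB1 well of NRF2 cells reached the lowest HcRed well of the same chemical under DMSO, CSC or NNK.

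In the CRISPR arm, SERPINB1 read 41.3, 35.7 and 49.4 CPM in FAT1 and 53.0, 43.9 and 64.2 CPM in CDKN2A cells, all below the GFP wells, with differences of -1.22 (SE 0.14) and -1.02 (SE 0.16). FAT1 stayed below GFP by -1.32 (SE 0.14) with CSC, -0.83 (SE 0.13) with BaP and -0.99 (SE 0.15) with NNK. For SERPINB2 the 3 FAT1 wells held 2 counts each and the 3 CDKN2A wells 3 counts each under DMSO. The GFP level was 12.3 times the FAT1 level over the pooled counts, with an exact interval of 5.35 to 34.9 that covers counting error only, and 8.43 times the CDKN2A level, with an interval of 4.16 to 19.3. Under CSC, where FAT1 wells held 23 counts in all, the ratio was 10.7 (6.90 to 17.5).

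GFP against HcRed was higher under DMSO for SERPINB1, by 0.71 (SE 0.13), and for SERPINB2, by 0.97 (SE 0.33), while PI3 and SLPI were lower in the same wells. FAT1 and CDKN2A cells under DMSO were compared with these same GFP wells. The SERPINB2 call was lost under 4 of 8 alternatives and on leaving out any of 5 of the 6 wells, with values of 0.77 to 1.28. Under CSC the difference was 0.40 (SE 0.12) for SERPINB1 and 0.15 (SE 0.18) for SERPINB2, the latter not past the threshold. Under NNK neither gene passed it. The GFP means there were 1.25 and 1.67 times the HcRed means, and the wells did not overlap. FGFR1, NRG1 and PIK3CA cells differed from HcRed under DMSO by -0.34 to 0.09 for SERPINB1 and by -0.63 to -0.33 for SERPINB2, none past the threshold.

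SERPINB5 (maspin), an epithelial clade B serpin without a known target protease, varied little. Group means under DMSO ran from 193 CPM in CDKN2A to 307 CPM in NRG1 cells, and each neighbour in that order overlapped the next. CDKN2A wells read 196, 168 and 214 CPM and GFP wells 213, 239 and 296 CPM, so that the highest CDKN2A well just passed the lowest GFP well. The fitted difference was -0.48 (SE 0.13), -0.34 and no longer past the threshold without GFP replicate 3, and -0.31 without CDKN2A replicate 2. GFP was below HcRed by -0.24 (SE 0.09) under DMSO, -0.29 (SE 0.09) under CSC and -0.42 (SE 0.09) under NNK. Under CSC, SERPINB5 was higher across populations by 0.16 (SE 0.04), with no overlap in NRF2 and PIK3CA cells and overlap in the other 3 populations. Under NNK it was not called across populations, but without NRG1 replicate 2 it was higher by 0.13 and past the threshold. The NNK wells were above all DMSO wells in HcRed cells and overlapped them in the other 6 populations.

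CSTB (cystatin B), the cytosolic inhibitor of cathepsins B, H and L, was the steadiest member, with all 82 wells between 121 and 212 CPM. Group means under DMSO ran from 138 CPM in FAT1 to 178 CPM in GFP cells, and every neighbour in that order overlapped the next. FAT1 wells read 140, 146 and 128 CPM and GFP wells 149, 212 and 172 CPM. That difference, -0.29 (SE 0.10), was the only one of CSTB past the threshold, and the call was lost under 4 of 8 alternatives and on leaving out any of 5 of the 6 wells, with a value of -0.13 without GFP replicate 2.

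SERPINB3, SERPINE2 and LCN2 were near the limit of detection at this depth. SERPINB3, an inhibitor of cysteine cathepsins known as squamous cell carcinoma antigen 1, was at 0 in 13 of 82 wells and reached 10 counts at most. Under DMSO its wells read 3.42, 5.15 and 3.10 CPM in HcRed, 0.839, 0.831 and 0.733 CPM in GFP and 0 in all 3 CDKN2A cells' wells. The HcRed wells did not overlap the GFP wells, each of which held 1 count. SERPINB3 passed no threshold in the 44 comparisons in which it was tested by limma, with 6 at an unadjusted p under 0.05, and was called in 1 by edgeR and 0 by DESeq2. Its near copy SERPINB4 had 29 counts over all 82 wells, at most 4 in a well. Of the windows of read length in the last 500 bases of SERPINB3, 24.0% are also in SERPINB4. The study counted only UMIs that matched a single gene, so reads from these windows may be missing from the counts of both.

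SERPINE2 (protease nexin 1), a secreted inhibitor of thrombin and urokinase, held 0 to 23 counts per well. CDKN2A cells had the highest DMSO mean, with wells of 8.37, 13.7 and 6.36 CPM against 5.04, 5.82 and 2.20 CPM in GFP, a fitted difference of 0.99 (SE 0.43). FAT1 and NRF2 cells had the lowest, at 2.07 and 2.41 CPM. SERPINE2 was called in 0 of 47 comparisons by limma, 0 by edgeR and 0 by DESeq2, with 3 at an unadjusted p under 0.05. LCN2, a siderophore-binding lipocalin and no protease inhibitor, had 47 counts over all 82 wells and 0 in 48 of them. It passed the filter on low counts in 5 of 47 comparisons, and its highest well was an NRG1 well under CSC, with 5 counts.

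**Figure D3:**
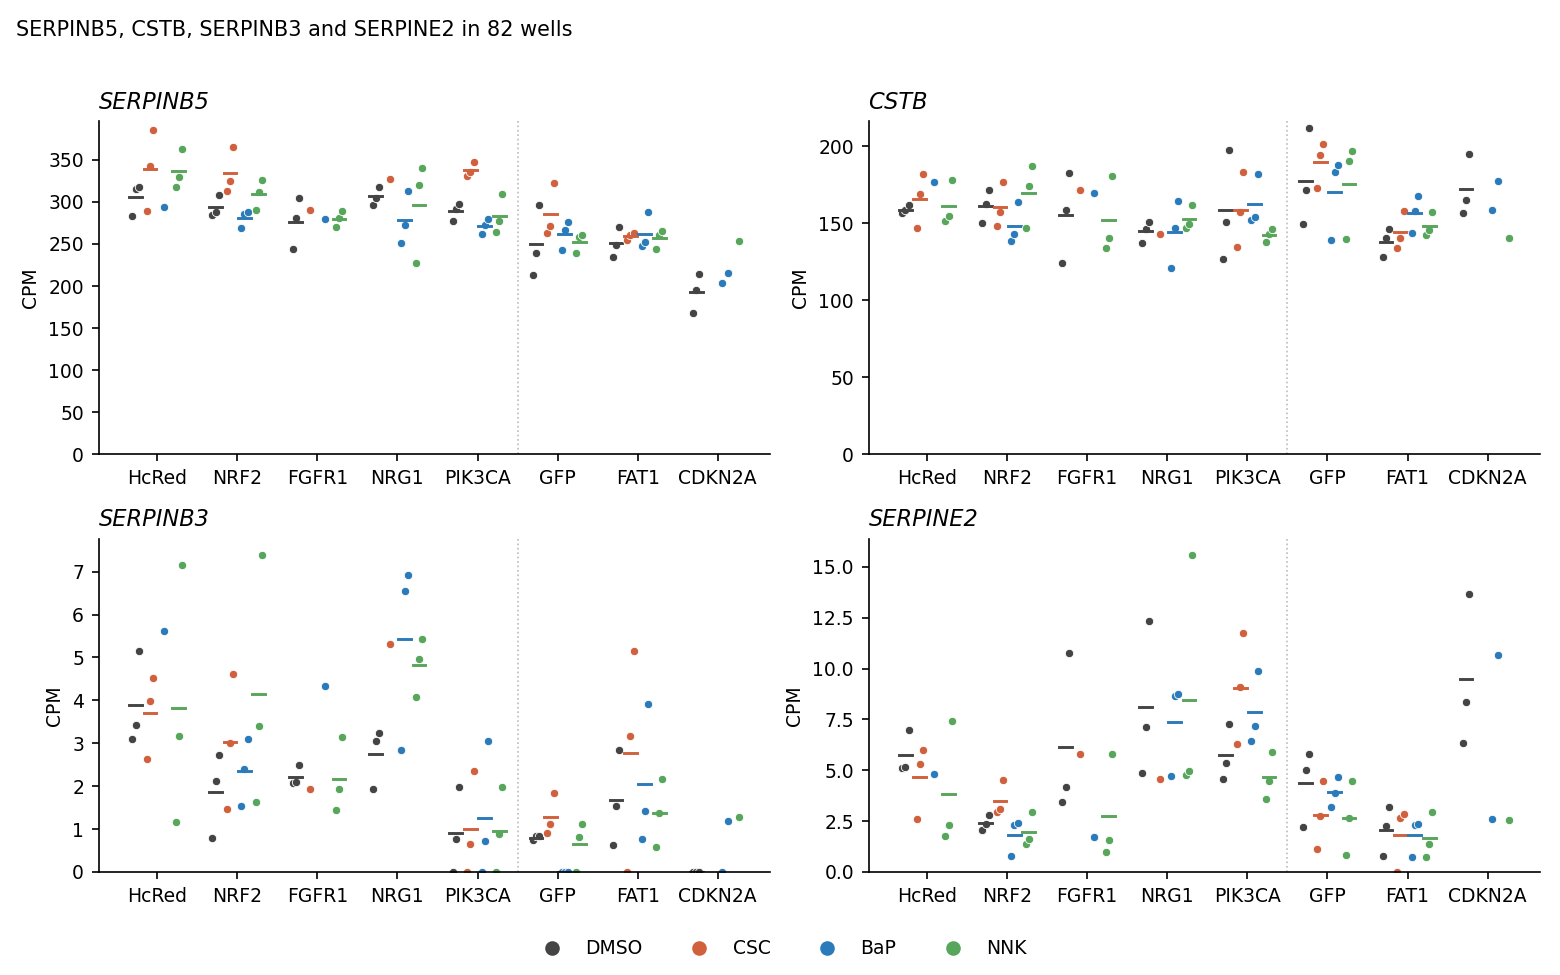
SERPINB5, CSTB, SERPINB3 and SERPINE2 in each of the 82 wells, in CPM on a linear axis from 0, with points, bars and colours as in the plot of PI3 and SLPI. SERPINB5 and CSTB wells lie within narrow bands (121 to 212 CPM for CSTB), and SERPINB3 and SERPINE2 lie between 0 and 15.6 CPM with wide spread inside groups, the highest being the NRG1 well under NNK that stood apart.

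A member counted as called where its adjusted p was under 0.05 after limma-voom over all genes, and the share of all genes called is given beside each count because the members were chosen on these same contrasts. Against HcRed under DMSO, the call was reached by 1 of 8 tested members in NRF2 cells (4.91% of all genes), 2 of 9 in FGFR1 (0.914%), 2 of 9 in NRG1 (3.08%), 2 of 8 in PIK3CA (5.4%) and 4 of 8 in GFP (10.8%). Against GFP it was reached by 5 of 8 in FAT1 (14.1%) and 4 of 7 in CDKN2A (17.9%). Across populations it was 3 of 8 members under CSC (5.81% of all genes), 2 of 8 under BaP (9.16%) and 1 of 8 under NNK (7.22%, or 19.9% with 2 members without the NRG1 well that stood apart).

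In the wells given CSC, 2 of 8 members were called in NRF2 (2.88% of all genes), 2 in PIK3CA (4.58%) and 4 in GFP cells (9.43%) against HcRed, and 3 in FAT1 cells against GFP (11.2%). Under BaP 3 were called in FAT1 cells (11.6%). Under NNK it was 1 in NRF2 (3.09%), 2 in FGFR1 (1.52%), 2 in NRG1 (0.116%, or 1.04% without its replicate 2), 2 in PIK3CA (3.12%), 3 in GFP (7.93%) and 3 in FAT1 cells (13.5%). For a chemical against DMSO within 1 population, CSC had 2 members in HcRed (1.04% of all genes), 2 in NRF2 (1.62%), 3 in PIK3CA (1.42%), 2 in GFP (1.29%) and 0 in FAT1 cells (0.457%), and under BaP 1 in NRF2 (2.06%), 1 in NRG1 (0.895%) and 1 in FAT1 cells (1.63%). Under BaP limma called 0 in PIK3CA (1.17%) and 0 in GFP cells (1.51%), with 2 members at an unadjusted p under 0.05 in each, and edgeR called 1 in PIK3CA cells. No member was called by limma, edgeR or DESeq2 in FAT1 cells under CSC, where 3 had an unadjusted p under 0.05. None was called by these tools under NNK within a population either, where 0 to 3 had an unadjusted p under 0.05. The shares of all genes called there were 2.56% in HcRed, 1.84% in NRF2, 0.564% in FGFR1 and 0.00866% in NRG1 cells. The NRG1 share was 1.77% without its replicate 2. The shares were 1.42% in PIK3CA, 0.809% in GFP and 3.19% in FAT1 cells.

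**Figure D4:**
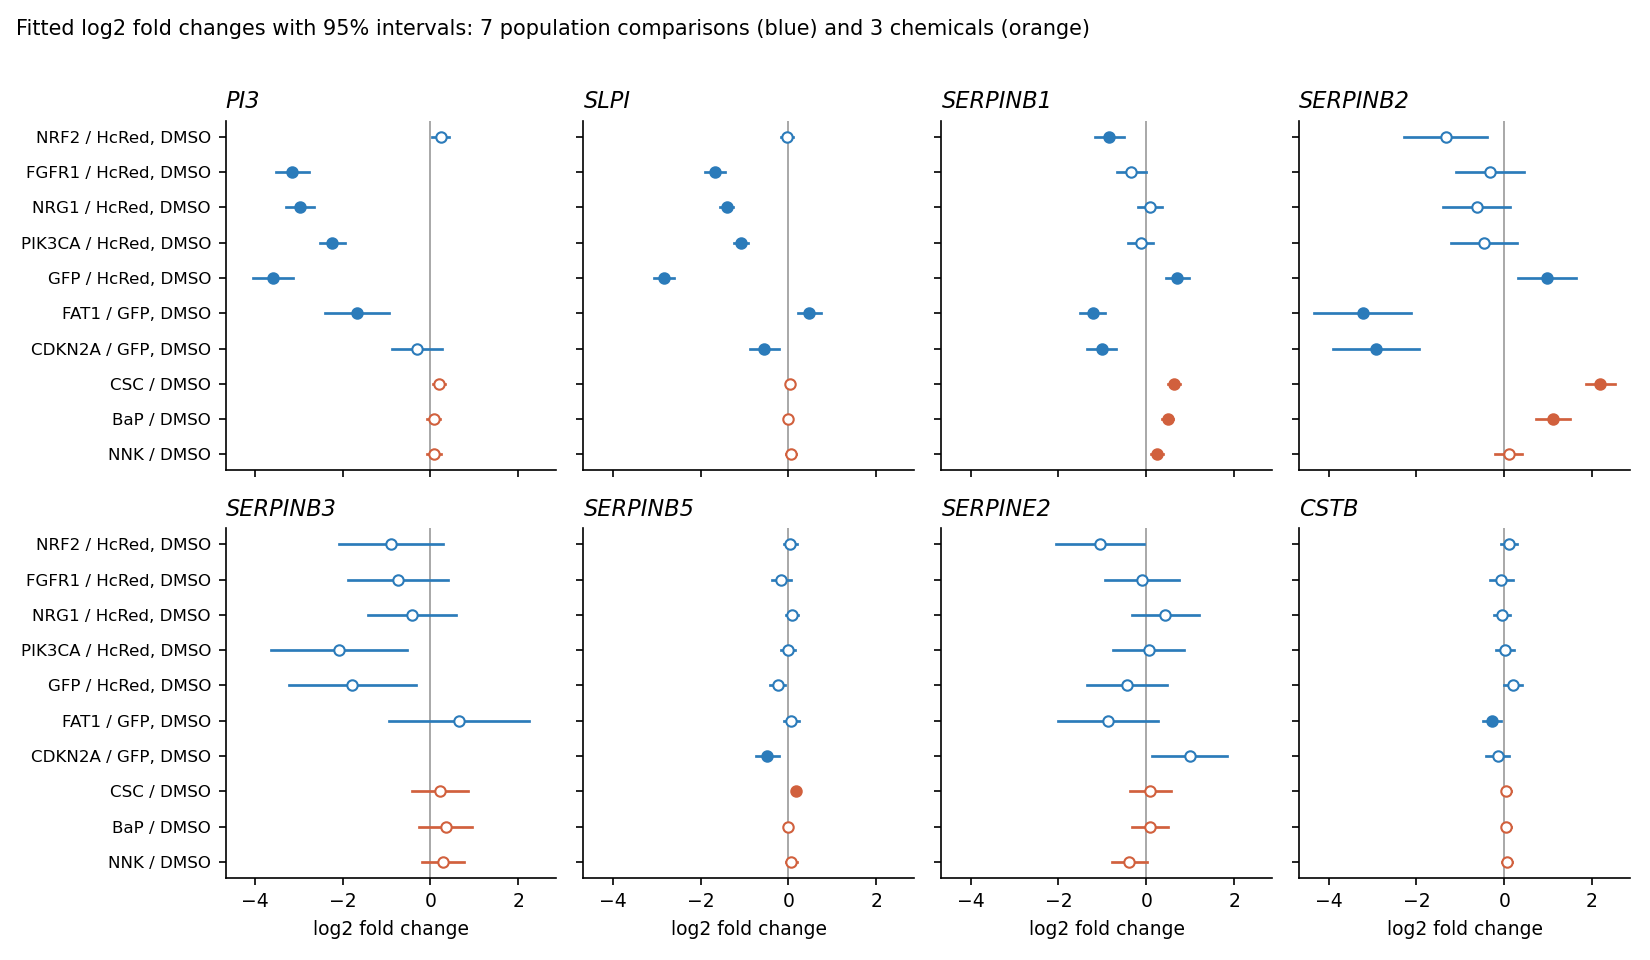
Fitted log2 fold changes (x axis) of the 8 members with enough counts in 7 population comparisons under DMSO (blue) and for 3 chemicals across populations (orange). Points are estimates, filled where the adjusted p over all genes was under 0.05, and bars are 95% intervals. PI3 and SLPI depart from 0 in the population comparisons (to -3.59 for PI3) and SERPINB1 and SERPINB2 in both kinds (2.19 for SERPINB2 under CSC).

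Where the spread of each member lay was described by balanced sums of squares of log2 CPM over NRF2, PIK3CA, GFP and FAT1 cells under all 4 chemicals. The population took 97.5% of the spread of PI3 and 97.1% of that of SLPI, and the chemical 0.0161% and 0.385%. For SERPINB1 the shares were 70.8% and 18.0%, and for SERPINB2 55.8% and 29.9%. The medians over 3358 genes of mean CPM of at least 20 were 48.6% for the population and 7.62% for the chemical. Spread between wells of a group took 67.0% for CSTB and 54.3% for SERPINB3, against a median of 28.7%. SERPINB2 (mean 12.5 CPM) and SERPINB3 (mean 2.25 CPM) lie below the limit set for these medians. SERPINB3 held 0 to 10 counts a well.

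**Figure D5:**
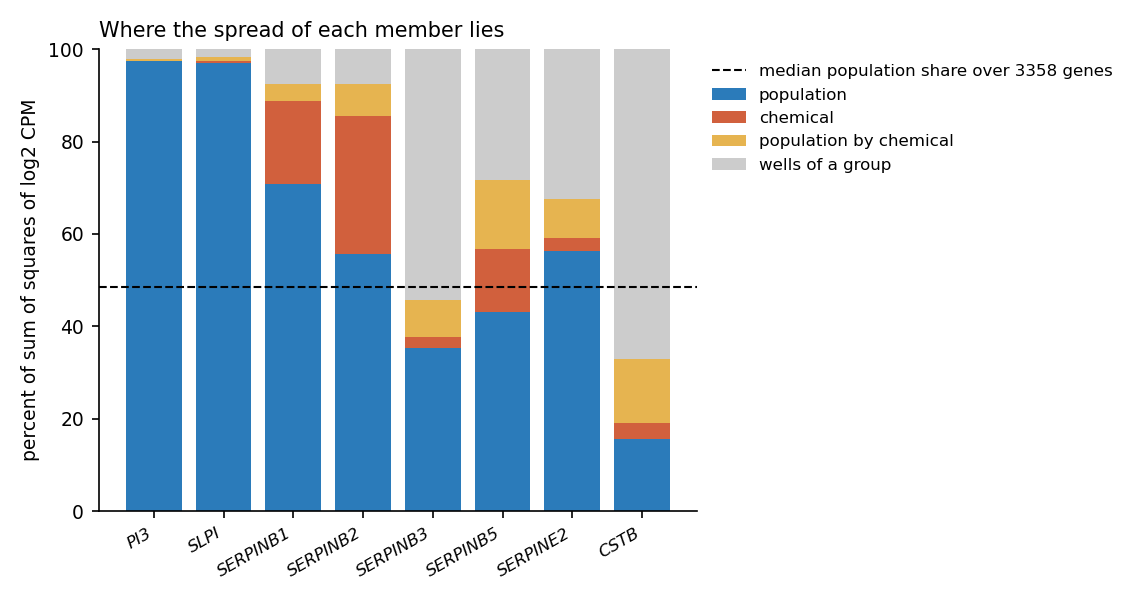
Share of the sum of squares of log2 CPM (y axis, percent) that lay between populations, between chemicals, in their interaction and between wells of a group, for each member. PI3 and SLPI lie almost wholly between populations (97.5% and 97.1%), and SERPINB2 has the largest chemical share (29.9%). The dashed line is the median population share (48.6%) over 3358 genes of mean CPM of at least 20, a level that SERPINB2, SERPINB3 and SERPINE2 do not reach.

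Whether a chemical acted differently in a population than in its control was asked with an interaction term in 9 comparisons. For CSC, 0.231% of all genes were called in NRF2, 0% in PIK3CA and 0% in FAT1 cells, and for BaP 0.054% in FAT1 cells. For NNK it was 0.036% in NRF2, 0.0269% in FGFR1, 0% in NRG1 (0.00895% without its replicate 2), 0.00907% in PIK3CA and 0.018% in FAT1 cells. None of the 8 or 9 members tested was called by limma, edgeR or DESeq2 in any of them, and 1 of 73 member tests had an unadjusted p under 0.05, that of SLPI under BaP in FAT1 minus GFP cells (-0.43, SE 0.19). The CSC difference of SERPINB2 was smaller in NRF2 than in HcRed cells by -0.50 (SE 0.54), with a 95% interval of -1.58 to 0.57, and larger in PIK3CA cells by 0.54 (SE 0.46), with an interval of -0.38 to 1.47. For SERPINB1 the CSC difference in FAT1 minus GFP cells was -0.14 (SE 0.20), with an interval of -0.54 to 0.26. These intervals hold differences in either direction.

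The likeness of patterns was measured as the Spearman correlation of group mean log2 CPM over the 25 groups of 3 wells, which share populations, plate and depth. Among the members, PI3 and SLPI were most alike (0.92), followed by SLPI and SERPINB5 (0.85) and SERPINB1 and SERPINB2 (0.82). PI3 and SERPINB1 had a correlation of -0.02. Among 3358 genes, the pattern most like PI3 was that of NDUFS1 (0.97), followed by SLPI (0.92) and DDX27 (0.91), and that most like SLPI was TIMP1 (0.93), followed by PI3 and DYNLL1 (0.92). SERPINB1 was most like SERPINB6 (0.83), HMGN4 (0.82) and POMP (0.81), and SERPINB2 most like C19orf33 (0.84), SERPINB1 (0.82) and HMGN4 (0.80). TIMP1, an inhibitor of matrix metalloproteinases, had population medians of 336 CPM in GFP to 1325 CPM in NRF2 cells.

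For the remaining members, SERPINB3 was most like CHCHD1 (0.83), S100A6 (0.78) and AGR2 (0.75), and SERPINB5 was most like TIMP1 (0.87), SLPI (0.85) and KNOP1 (0.84). SERPINE2 was most like ODC1 (0.89), LOC541471 (0.86) and MT2A (0.84), and CSTB was most like NDUFB4 (0.82), UQCRH (0.82) and SELT (0.75). SERPINB3 held at most 10 counts in a well and SERPINE2 at most 23, so their group means and correlations rest on few counts. NDUFS1 matched PI3 in order but not in range, since its population medians lay between 93.8 and 164 CPM.

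Other inhibitors and their target proteases were read from 6 lists of 80 genes in all, with p-values from limma-voom adjusted by Benjamini-Hochberg over all genes. Of 9 other clade B serpins, 5 or 6 were tested in a comparison. In CDKN2A cells 0 of 5 rose and 3 fell against GFP, where 17.9% of all genes were called, namely SERPINB7 (-1.97, SE 0.27, adjusted p = 9.4e-09), SERPINB13 (-1.81, SE 0.27, adjusted p = 4.8e-08) and SERPINB6 (-0.90, SE 0.14, adjusted p = 8.9e-08), and the median of the 5 was -0.90 against 0.03 over all genes. The same 3 genes rose in GFP against HcRed, SERPINB6 by 0.50 (SE 0.10, adjusted p = 0.0002), SERPINB7 by 0.94 (SE 0.22, adjusted p = 0.002) and SERPINB13 by 0.82 (SE 0.23, adjusted p = 0.011). These rises and the falls in CDKN2A cells share the GFP DMSO wells, so they are not separate observations. In PIK3CA cells SERPINB13 fell by 2.66 on the log2 scale (SE 0.41, adjusted p = 9.5e-07) and SERPINB7 by 1.05 (SE 0.30, adjusted p = 0.019).

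SERPINB6, which lies near SERPINB1 on chromosome 6, moved in the direction of SERPINB1 in each comparison where both passed the threshold. Its DMSO means ran from 90.3 CPM in NRF2 to 170 CPM in GFP cells. It fell in NRF2 cells (-0.39, SE 0.12, adjusted p = 0.027) and FAT1 cells (-0.72, SE 0.11, adjusted p = 7.2e-08), and rose across populations under CSC (0.20, SE 0.05, adjusted p = 0.0039) and BaP (0.24, SE 0.05, adjusted p = 0.00015). Under CSC the clade B list had 2 higher and 1 lower of 5 tested, beside 5.81% of all genes called, with SERPINB8 at 0.53 (SE 0.15, adjusted p = 0.014) and SERPINB7 at -0.40 (SE 0.11, adjusted p = 0.019).

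CSTA (stefin A), the close relative of CSTB, varied where CSTB did not. Its DMSO wells ranged from 649 to 671 CPM in HcRed, from 779 to 817 CPM in GFP and from 374 to 384 CPM in FAT1 cells, with no overlap. CSTA fell in FAT1 cells by 1.02 on the log2 scale (SE 0.07, adjusted p = 2.6e-25), in PIK3CA by 0.84 (SE 0.07, adjusted p = 3.1e-17), in FGFR1 by 0.71 (SE 0.11, adjusted p = 1.3e-08), in NRG1 by 0.67 (SE 0.06, adjusted p = 4.9e-16) and in CDKN2A by 0.61 (SE 0.10, adjusted p = 1.4e-06). It rose in GFP against HcRed (0.33, SE 0.05, adjusted p = 2.6e-06) and fell under CSC (-0.26, SE 0.03, adjusted p = 2.2e-09). The rise in GFP cells and the falls in FAT1 and CDKN2A cells share the GFP DMSO wells. Of the 7 other cystatins, 2 or 3 were tested in a comparison, and besides CSTA only CST3 was called, in GFP against HcRed under CSC (0.81, SE 0.26, adjusted p = 0.037).

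Among 15 other WAP, Kazal, Kunitz and macroglobulin inhibitors, WFDC2, a WAP protein of the cluster that holds PI3 and SLPI, rose in FGFR1 (1.94, SE 0.35, adjusted p = 1.3e-05) and PIK3CA cells (1.36, SE 0.36, adjusted p = 0.0094), both of which had lower PI3 and SLPI. WFDC3 rose under CSC (0.69, SE 0.21, adjusted p = 0.029), BaP (0.74, SE 0.17, adjusted p = 0.0017) and NNK (0.45, SE 0.15, adjusted p = 0.045). SPINT2, a Kunitz inhibitor of membrane-anchored serine proteases, rose in GFP against HcRed (0.54, SE 0.13, adjusted p = 0.0032) and fell in NRG1 (-0.48, SE 0.14, adjusted p = 0.026), FAT1 (-0.72, SE 0.13, adjusted p = 7.1e-06) and CDKN2A cells (-0.86, SE 0.15, adjusted p = 4.4e-06). Here too the GFP, FAT1 and CDKN2A values share the GFP DMSO wells. TFPI2 fell in NRF2 cells (-2.53, SE 0.48, adjusted p = 7.8e-05).

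Among 11 other serpins, SERPINI1 rose in NRF2 (0.93, SE 0.20, adjusted p = 0.00057), FGFR1 (0.96, SE 0.22, adjusted p = 0.0022), PIK3CA (1.23, SE 0.19, adjusted p = 1.2e-06) and CDKN2A cells (2.13, SE 0.20, adjusted p = 3.7e-15), and fell in GFP against HcRed under NNK (-0.83, SE 0.25, adjusted p = 0.026). Of the 12 innate defence proteins 4 to 6 were tested, and SAA1 fell in NRF2 cells (-1.09, SE 0.23, adjusted p = 0.00062) and in GFP against HcRed (-1.73, SE 0.28, adjusted p = 7e-06). SAA1 rose in PIK3CA cells (0.73, SE 0.17, adjusted p = 0.0024), in CDKN2A cells against GFP (1.16, SE 0.31, adjusted p = 0.0029) and across populations under BaP (0.45, SE 0.10, adjusted p = 0.0017), and RNASE7 rose in CDKN2A cells (2.06, SE 0.77, adjusted p = 0.048). The GFP and CDKN2A values of SAA1 share the GFP DMSO wells.

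The proteases that these inhibitors are known to block were partly absent. ELANE (neutrophil elastase) and CTSG (cathepsin G) had 0 counts in all 82 wells, which allows up to 0.0285 CPM over the pooled wells, and PRTN3 (proteinase 3) had 1 count in all. PLAU (urokinase), a target of SERPINB2, ranged from 1.36 to 17.3 CPM, and the cathepsins CTSB and CTSL, targets of cystatins, from 51.9 to 132 CPM and from 31.4 to 81.5 CPM. CTSL rose across populations under CSC (0.30, SE 0.06, adjusted p = 0.00045), BaP (0.23, SE 0.07, adjusted p = 0.028) and NNK (0.27, SE 0.07, adjusted p = 0.0039), while CTSB fell under NNK (-0.28, SE 0.06, adjusted p = 0.0013).

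Of 26 listed proteases, 16 were tested in CDKN2A cells against GFP, where 1 rose and 6 fell beside the 17.9% of all genes called. CTSV fell by 1.73 on the log2 scale (SE 0.12, adjusted p = 1.2e-23), KLK7 by 2.64 (SE 0.39, adjusted p = 4.3e-08) and KLK5 by 3.03 (SE 0.55, adjusted p = 8.2e-06), and CTSC rose by 0.96 (SE 0.13, adjusted p = 2.3e-09). KLK5 and KLK7 are kallikreins of stratified epithelium. KLK7 also fell in NRG1 (-2.92, SE 0.46, adjusted p = 2.3e-06), PIK3CA (-2.87, SE 0.47, adjusted p = 4.7e-06) and FAT1 cells (-1.06, SE 0.27, adjusted p = 0.0026), and KLK5 in FAT1 cells (-3.77, SE 0.71, adjusted p = 2e-05). PRSS8 (prostasin) rose in FAT1 cells by 0.89 (SE 0.10, adjusted p = 3e-11) and fell in CDKN2A cells (-0.79, SE 0.15, adjusted p = 1.7e-05).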

How the data were processed

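AALE cells were profiled by 3′DGE in 95 wells. The authors aligned the reads to hg19 RefSeq transcripts with BWA 0.7.10 and deposited 1 table per well of UMI counts per gene, each UMI counted once per gene and well. The deposited counts were used without change. Groups came from the sample labels, and the 13 wells with 2-digit replicate numbers were left out of the comparisons. Totals of 692446 to 1895740 counts per well limit the precision of low genes, and counting intervals cover counting error only.

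Genes of mean count above 1 in the fitted wells were tested with limma 3.58.1 (voom weights, TMM factors from edgeR 4.0.16, R 4.3.3) in 47 comparisons, two-sided, with Benjamini-Hochberg adjustment over all genes and a threshold of 0.05. The 9 members and the lists were chosen with earlier results of these data known. All members were described, and at most 4 genes of another list were named per comparison, by smallest adjusted p. Levels are counts divided by the library total and scaled to CPM. edgeR's quasi-likelihood test, DESeq2 1.42.0, other scalings, no filter, 1 fit over all groups, a replicate block and leaving out each well were tried. The fit was tested on simulated data, where for GFP against HcRed 41% of 200 genes changed by 1 on the log2 scale and 84% of 200 changed by 2 were recovered. For CSC across populations 95.5% of 200 genes changed by 1 were recovered, and for the CSC response of NRF2 minus HcRed 14.5%. No same-numbered wells were paired, since 0 of 35 comparisons had every pair's correlation over 0.1. Some listed items are not reported here.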

Additional observations from a re-analysis of the deposited data

Results flagged for a closer look

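The 13 wells with 2-digit replicate numbers were outside the comparisons. In some groups of them every well lay above every DMSO well of the same population, and in others below. These groups were picked for that from all 9 members in all such groups, and no share over all genes is given beside them. With so few wells, some groups can lie apart by chance. Those above are given first. SERPINB2 under CSC had a mean of 46.5 CPM in NRG1 cells (DMSO wells 3.66 to 6.46 CPM), 19.6 CPM in FGFR1 cells (DMSO 4.16 to 8.28 CPM) and 10.9 CPM in CDKN2A cells (DMSO 1.67 to 2.16 CPM). Under BaP it had a mean of 13.1 CPM in HcRed cells (DMSO 6.85 to 8.52 CPM) and 8.86 CPM in FGFR1 cells, and under NNK 5.03 CPM in CDKN2A cells. SERPINB1 had a mean of 96.6 CPM in NRG1 cells under CSC (DMSO 55.4 to 72.6 CPM), 66.2 CPM in FGFR1 cells under CSC and 77.5 CPM under BaP (DMSO 45.0 to 58 CPM), and 80.5 CPM in HcRed cells under BaP (DMSO 52.7 to 75.3 CPM).

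Of the other members, PI3 had a mean of 37.8 CPM in NRG1 cells under CSC (DMSO 22 to 23.3 CPM). SLPI had a mean of 59.1 CPM in CDKN2A cells under NNK (DMSO 50.8 to 54.7 CPM), and CSTB 156 CPM in NRG1 cells under CSC (DMSO 137 to 151 CPM). Other groups had every well below every DMSO well of their population. PI3 in FGFR1 cells had means of 18.2 CPM under CSC and 18.8 CPM under BaP (DMSO 19.9 to 22.9 CPM). SERPINB3 there had 1.74 CPM under CSC (DMSO 2.08 to 2.48 CPM), on 2 counts a well. In HcRed cells under BaP, SLPI had a mean of 449 CPM (DMSO 496 to 578 CPM). SERPINB5 had 278 CPM (DMSO 284 to 318 CPM) and SERPINE2 0.933 CPM (DMSO 5.13 to 6.97 CPM), the latter on 1 count a well. All these groups hold 2 or 3 wells each, and the differences were not tested. The labels do not say whether wells with 2-digit numbers are repeat libraries of the same sample. They may therefore not be separate replicates.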

How the results depend on the processing

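Calls of members stayed within 1.5 times the reported count under every alternative run, except for chemicals within populations. There DESeq2 made 4 calls against 12, with 5 of the 12 given no adjusted p. It called 0 members under CSC in NRF2 and in GFP cells, where limma called 2 in each. SERPINB2 was called in 14 comparisons by limma and in 7 by DESeq2. Of the population calls, 1 of 20 under DMSO and 4 of 27 under the chemicals had no adjusted p with DESeq2. No named value changed sign. Beside the losses given above, 1 fit over all groups lost the calls of SERPINB5 under CSC across populations and in PIK3CA cells, of SERPINB5 in GFP against HcRed under CSC and NNK, and of SERPINB1 in GFP against HcRed under CSC, in GFP cells under CSC and in FAT1 cells under BaP. DESeq2 lost SERPINB1 under BaP in NRF2 and FAT1 cells, PI3 in FAT1 against GFP under BaP, SERPINB1 and SERPINB5 in GFP against HcRed under CSC, and SERPINB5 in PIK3CA cells under CSC. Each of these except SERPINB5 under CSC across populations, SERPINB5 under NNK and PI3 under BaP was also lost on leaving out 1 or more single wells. Leaving out 1 well at a time gave 17 to 20 member calls for populations under DMSO (20 reported), 24 to 27 for populations under the chemicals (27), 6 to 7 across populations (6), 10 to 13 within populations (12), 0 for response differences (0), and 75 to 91 calls over the other lists (86). The replicate block gave 21, 28, 7, 15, 0 and 85 in the same order, although the numbers did not pair the wells (0 of 35 comparisons had every pair over 0.1).

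Over all genes, counts of calls moved by over 1.5 times in places. DESeq2 called fewer genes in all 7 comparisons under DMSO (FGFR1 51 against 104). One fit over all groups called 69 against 349 in NRG1, 160 against 551 in NRF2, 303 against 607 in PIK3CA and 770 against 1202 in GFP cells under DMSO, and 399 against 661 under CSC and 660 against 1036 under BaP. Under NNK it called 310 against 13 in NRG1 cells, and within populations it moved 14 of 16 comparisons of 20 or more calls, all to fewer calls, as DESeq2 did. The 26 calls of the CSC response of NRF2 minus HcRed became 0 in 1 fit over all groups, 6 with edgeR, 7 with the 10000 most variable genes, 9 with library totals and 55 with the replicate block. Scaling by library totals called 206 genes in FGFR1 cells. With all wells the chemicals gave 1134, 1649 and 1392 against 661, 1036 and 819. Those fits take the wells with 2-digit numbers as separate samples, which the labels do not settle. NNK gave 2145 with no filter and 2245 without NRG1 replicate 2. FGFR1 under DMSO gave 329 without FGFR1 replicate 3. The cause was not tested.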
